A study of Citrullus lanatus with 26 samples.

Results

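novel_miR_101 and novel_miR_99 are 2 of the 208 small RNA names counted in watermelon (Citrullus lanatus) flesh as the fruit grew and ripened. They were chosen by their mean CPM over the 6 ages in earlier results of these data, in which both rose, so their changes with age are given as a description with errors and no test. Both were scarce in the youngest flesh and abundant in the oldest, but they did not follow the same course. The mean of novel_miR_101 rose at each step and gained most between 10 and 20 DAP, whereas novel_miR_99 made its gain by 10 DAP and showed no gain beyond its spread after that. In the order of its means, novel_miR_101 followed the description of both as rising step by step to ripening, and novel_miR_99 did not. Since both were chosen for their rise, this describes them and is no test. Some steps of novel_miR_101 rest on few counts or lie within the spread without scaling factors.

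The flesh came from the cultivar 97103, labelled Citrullus lanatus subsp. vulgaris, at 0, 1, 5, 10, 20 and 30 DAP, the unit of fruit age that the labels use. Each age has 3 libraries, 18 in all, and no treatment, transgene or mutation is given for any of them. The labels do not say whether the 3 libraries came from separate fruits or plants, so the errors below hold the spread between libraries only, and that may be technical. A further 8 libraries compare 97103 with the germplasm PI296341FR, but their novel_mir numbers were not taken to name the same molecules, so they were not used here.

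Plant miRNAs are short RNAs cut by the DCL1 enzyme from hairpin transcripts and loaded into AGO1, where they guide the cutting or silencing of messenger RNAs with a matching site. Families shared by many plants, such as miR156 and miR164, are known regulators of growth and fruit development. A name with the novel_miR prefix usually stands for a small RNA predicted from the reads of one study and matched to no listed family. The tables give no sequence, position or target for novel_miR_101 or novel_miR_99, so none is printed and no role is given. The tissue was checked as far as small RNA allows, since no protein-coding marker of flesh was measured.

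Each value below is a count of reads assigned to a name, or that CPM, which relates that count to a scaled library total. Totals per library ran from 62050 to 153755 counts over the 208 names. Scaling used trimmed-mean (TMM) factors, which lay between 0.53 and 0.70 for the libraries at 30 DAP and between 1.24 and 1.39 for those at 0 DAP. Most names differed between ages beyond the spread of their libraries, which may be technical. The filter on low counts kept 204 names. edgeR's quasi-likelihood F test over the 6 ages called 85.8% of them at an adjusted p under 0.05. A factor under 1 raises the CPM, so values without factors are given where they change a statement. Without factors, the median change of all names between 30 and 0 DAP moved to -1.06 on the log2 scale, against -0.01 with TMM factors.

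novel_miR_101 was nearly absent from the youngest flesh. It had 0, 2 and 2 counts in the 3 libraries at 0 DAP, and the 4 counts together have an exact 95% Poisson interval of 1.09 to 10.2. The library with no count allows a level of up to 20.3 TMM-scaled CPM, taking 3 counts as the limit. At 1 DAP it had 8, 7 and 4 counts, at 5 DAP 13, 14 and 7, and at 10 DAP 63, 39 and 38. At 20 DAP it had 725, 665 and 533 counts, and at 30 DAP 622, 793 and 1103. A low molecule thus became a common one, although the libraries at 20 and 30 DAP had smaller totals than most of the younger ones.

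On the TMM scale, novel_miR_101 averaged 9.29 ± 8.14 CPM at 0 DAP, 36.8 ± 9.54 at 1 DAP, 85.01 ± 28.3 at 5 DAP, 329 ± 126 at 10 DAP, 8783 ± 1309 at 20 DAP and 15376 ± 4139 at 30 DAP (SD, n = 3 each). Its order of levels followed age under TMM and RLE factors and in the unscaled CPM. With TMM factors the ranges of neighbouring ages did not overlap at any of the 5 steps. Without factors they overlapped between 1 and 5 DAP and between 20 and 30 DAP, so these 2 steps do not exceed the spread under every scaling. Ranges were not compared for names other than novel_miR_101 and novel_miR_99, so the share of all names that separate likewise is not known. Its share of the listed counts was 0.0012% ± 0.0011 at 0 DAP, 0.0374% ± 0.0087 at 10 DAP, 0.800% ± 0.111 at 20 DAP and 0.928% ± 0.133 at 30 DAP (SD, n = 3 each). Among the 208 names it ranked 201 to 206 by count at 0 DAP, 153 to 169 at 10 DAP, 19 to 24 at 20 DAP and 16 to 23 at 30 DAP.

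novel_miR_99 started higher and rose earlier. It had 11, 7 and 28 counts at 0 DAP and 29, 20 and 40 at 1 DAP. At 5 DAP it had 218, 296 and 259 counts, and at 10 DAP it reached 1270, 945 and 1155. It then had 525, 389 and 377 counts at 20 DAP and 351, 282 and 572 at 30 DAP. Every library at 20 and 30 DAP held fewer counts of novel_miR_99 than any library at 10 DAP, in smaller totals.

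On the TMM scale, novel_miR_99 averaged 102 ± 66.8 CPM at 0 DAP, 178 ± 72.3 at 1 DAP, 1924 ± 185 at 5 DAP, 7838 ± 1636 at 10 DAP, 5854 ± 635 at 20 DAP and 7280 ± 2361 at 30 DAP (SD, n = 3 each). The libraries at 0 and 1 DAP overlapped, and so did those at 10, 20 and 30 DAP. From lowest to highest the means ran 0, 1, 5, 20, 30 and 10 DAP, and the libraries of the last 3 of these overlapped. Without factors the level was 9056 ± 692 CPM at 10 DAP, 5340 ± 646 CPM at 20 DAP and 4394 ± 898 CPM at 30 DAP (SD, n = 3 each). On that scale the libraries at 10 DAP, with 8260 to 9521 CPM, lay above all those at 20 and 30 DAP. Whether novel_miR_99 held its level or declined after 10 DAP thus depends on the scaling. With TMM factors, RLE factors or none, neither its mean at 20 DAP nor that at 30 DAP exceeded that at 10 DAP. Scaled to the miR156 and miR159 names instead, a choice made after seeing the data, its log2 change at 30 against 10 DAP was 0.24 (SE 0.30), although those names were themselves called changed at 5 against 1 DAP with TMM factors. Its rank by count was 180 to 187 of 208 at 0 DAP, 79 to 91 at 5 DAP, 24 to 28 at 10 DAP and 28 to 39 at 30 DAP.

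**Figure D1:**
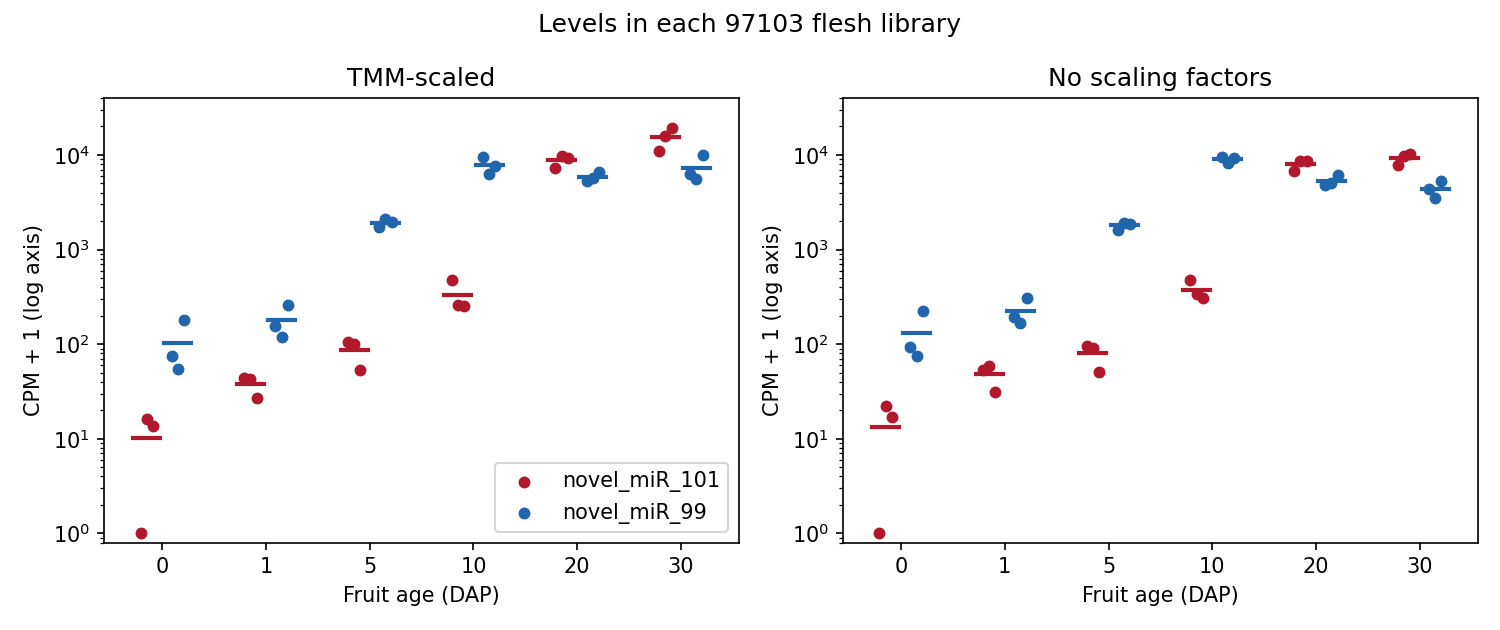
Levels of novel_miR_101 (red) and novel_miR_99 (blue) as CPM plus 1 on a log axis in each of the 3 libraries per age (points, in replicate order) with their mean (bars), TMM-scaled on the left and without factors on the right; ages are evenly spaced on the axis. novel_miR_101 climbs to 15376 CPM on average at 30 DAP on the TMM scale, while novel_miR_99 reaches 7838 CPM at 10 DAP and overlaps that level at 20 and 30 DAP on the same scale.

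The spread of novel_miR_101 between libraries was close to counting error up to 5 DAP and above it later, and that of novel_miR_99 was above counting error at all 6 ages. For novel_miR_101 the coefficient of variation of the CPM was 87.6% at 0 DAP, where counting alone gives 86.6%, and 26.9% at 30 DAP, where counting alone gives 3.45%. For novel_miR_99 it was 9.62% at 5 DAP and 32.4% at 30 DAP, where counting alone gives 6.23% and 4.99%. At 30 DAP the third library stood highest for both names, at 19256 CPM of novel_miR_101 and 9986 CPM of novel_miR_99, and it also had the lowest TMM factor of that age, 0.53. Without factors its novel_miR_101 level was 10218 CPM, close to the 9854 CPM of the second library, and its novel_miR_99 level was 5299 CPM, against 4377 CPM in the first library and 3504 CPM in the second.

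The steps between ages show when each name gained. Changes are edgeR log2 fold changes of the later over the earlier age from the fit over all 18 libraries. Their standard error (SE) was derived: the size of the log2 fold change with no prior count, divided by the square root of its quasi-likelihood F. For novel_miR_101 at 30 against 0 DAP this SE was 0.43, where DESeq2 gave 0.77. At 1 against 0 DAP novel_miR_101 changed by 1.91 (SE 0.80) and novel_miR_99 by 0.75 (SE 0.41). Both rest on few counts, and the ratio of scaled counts of novel_miR_101 was 4.07, with an exact 95% counting interval of 1.35 to 16.5. In this step edgeR's quasi-likelihood test, without pairing of libraries, called 0% of the 204 tested names at an adjusted p under 0.05. It had 26 names at an unadjusted p under 0.05, and DESeq2 called 3. In a fit of the 6 libraries of 0 and 1 DAP with the replicate number as a block, chosen after seeing the data, edgeR called 34 names, novel_miR_99 changed by 0.82 (SE 0.30), and novel_miR_101 had too few counts to be kept.

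At 5 against 1 DAP the names parted. novel_miR_99 changed by 3.44 (SE 0.32), the 9th highest change of the 204 names, and 55.8% of its rise from 0 to 30 DAP on the log2 scale of the TMM-scaled means lay in this step. novel_miR_101 changed by 1.17 (SE 0.49), the 38th highest, and this step held 11.3% of its rise. edgeR called 52.9% of names in either direction here, the highest share of the 5 steps.

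At 10 against 5 DAP both names changed by a similar amount, novel_miR_101 by 1.93 (SE 0.36) and novel_miR_99 by 2.02 (SE 0.27). They were the 3rd and the 1st of the 204 names in order of change with TMM factors. edgeR called 39.2% of names here, 11.8% higher and 27.5% lower. Without factors it called 63 higher and 34 lower. Both novel_miR_101 and novel_miR_99 were higher in every library at 10 DAP than in any at 5 DAP. Ranges of the other names were not compared, so this separation has no background share, and the shares called are another measure.

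At 20 against 10 DAP novel_miR_101 changed by 4.75 (SE 0.28), the highest change of the 204 names in this step with TMM factors. In mean CPM this was a 26.7-fold rise with TMM factors and a 21.4-fold rise without factors, and it held 44.3% of its rise over the course. novel_miR_99 changed by -0.42 (SE 0.26), which ranked 160th. edgeR called 18.6% of names in this step, 8.82% higher and 9.8% lower, and the median of all names was -0.08.

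At 30 against 20 DAP novel_miR_101 changed by 0.81 (SE 0.23) and novel_miR_99 by 0.32 (SE 0.26), and edgeR called 19.1% of names. Without factors these changes were 0.22 (SE 0.21) and -0.28 (SE 0.23), so the last step of novel_miR_101 was about as large as its error and that of novel_miR_99 changed sign. Over the whole course, 30 against 0 DAP, novel_miR_101 changed by 10.56 (SE 0.43) and novel_miR_99 by 6.11 (SE 0.36), 1st and 8th of the 204 names, of which edgeR called 67.6%. At 30 against 10 DAP, a comparison added after seeing the data, novel_miR_101 changed by 5.55 (SE 0.29) and novel_miR_99 by -0.10 (SE 0.26), and edgeR called 44.1% of names. novel_miR_101 thus made 51.9% of its log2 rise after 10 DAP with TMM factors, and 48.5% without factors. The rise of novel_miR_99 was complete by 10 DAP, at 101.7% of its rise with TMM factors. The shares of novel_miR_101 rest on 4 counts at 0 DAP. Its ratio of scaled counts at 30 against 0 DAP was 1679, with an exact 95% counting interval of 655 to 6166.

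**Figure D2:**
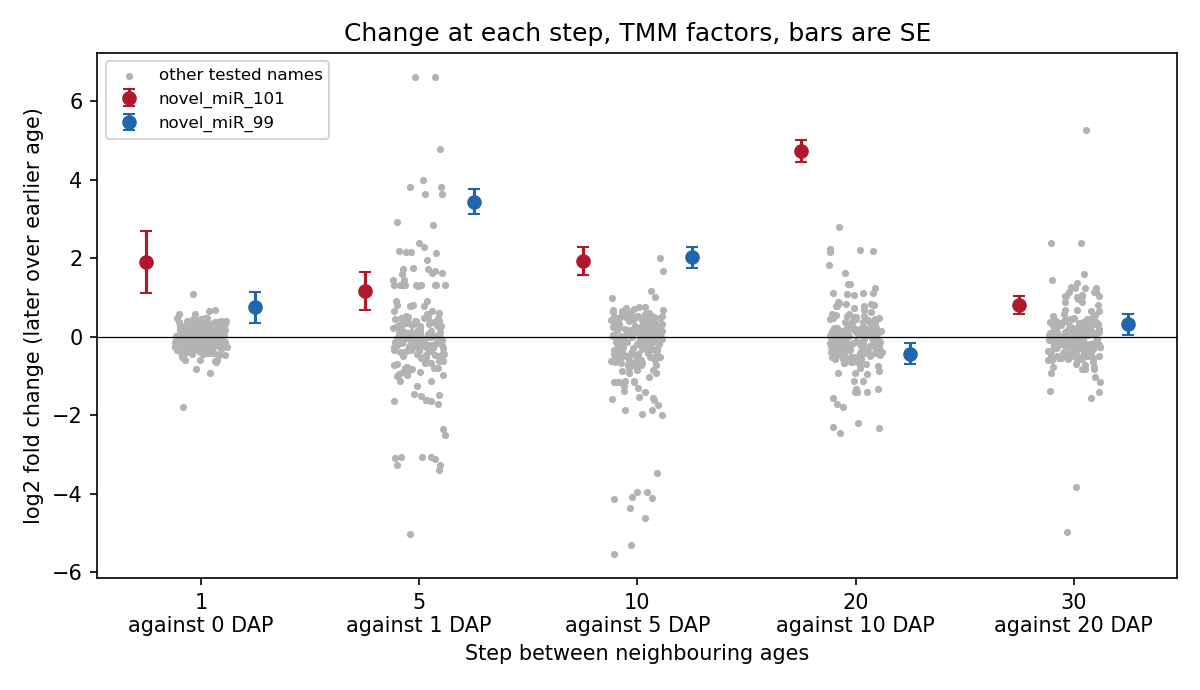
Log2 fold changes at each of the 5 steps between neighbouring ages for novel_miR_101 (red) and novel_miR_99 (blue), with bars of 1 SE, and for the other tested names (grey, no error drawn). The change of novel_miR_99 at 5 against 1 DAP is 3.44 and that of novel_miR_101 at 20 against 10 DAP is 4.75, where novel_miR_99 stands at -0.42.

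The ratio of both counts within a library does not depend on any scaling factor, and it turned over between 10 and 20 DAP. Counts are not corrected for how well each small RNA enters a library, so the turn of the ratio with age can be compared and its size cannot be read as molecules. At 5 DAP the count of novel_miR_99 was 16.8 to 37.0 times that of novel_miR_101, and at 10 DAP 20.2 to 30.4 times. At 20 DAP the count of novel_miR_101 was the larger in every library, at 1.38 to 1.71 times that of novel_miR_99, and at 30 DAP at 1.77 to 2.81 times. The mean log2 ratio of novel_miR_101 over novel_miR_99, each count plus 0.5, was -3.21 ± 1.49 at 0 DAP, -2.14 ± 0.91 at 1 DAP, -4.49 ± 0.56 at 5 DAP, -4.60 ± 0.29 at 10 DAP, 0.58 ± 0.17 at 20 DAP and 1.09 ± 0.35 at 30 DAP (SD, n = 3 each). The ratios at 0 and 1 DAP overlapped, as did those at 5 and 10 DAP, and the ratio at 20 and 30 DAP lay above all 12 younger libraries.

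**Figure D3:**
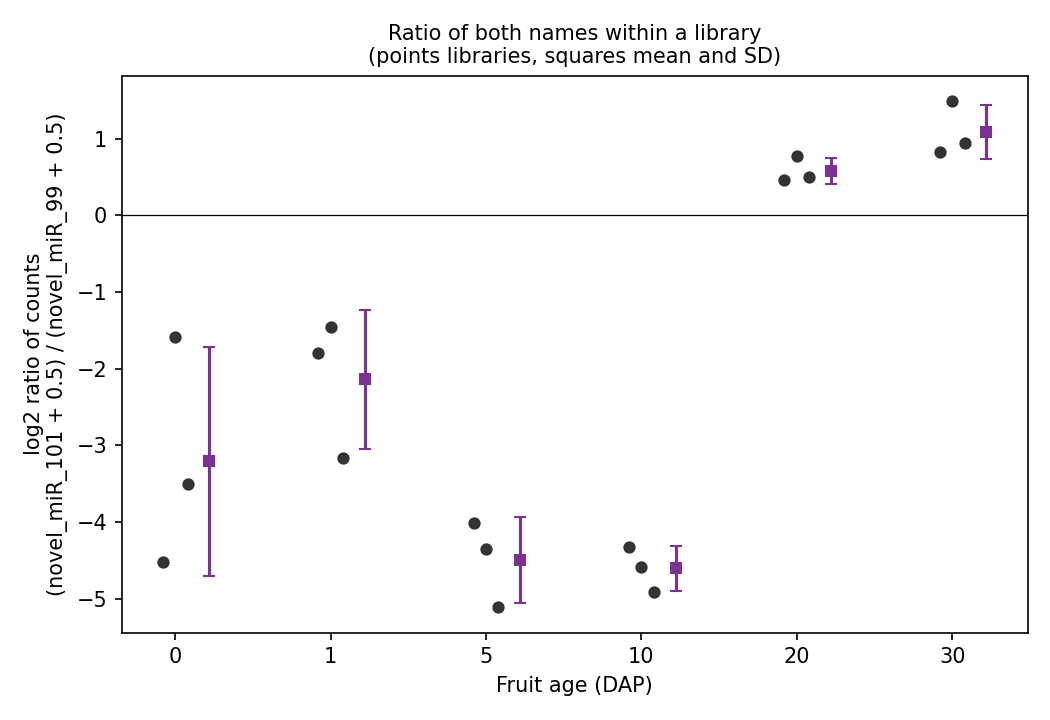
Log2 ratio of the count of novel_miR_101 to that of novel_miR_99 within each library (points, 3 per age in replicate order, 0.5 added to each count), with the mean and SD beside them (squares). All 12 libraries up to 10 DAP lie below 0 and all 6 libraries at 20 and 30 DAP lie above it, with means of -4.60 at 10 DAP and 0.58 at 20 DAP.

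Neither name was a copy of another. No other name had the same counts as novel_miR_101 or novel_miR_99 in every library, and none kept within 0.1 of either throughout when log2 of count plus 1 was compared. This matters because some of the 208 names share all their counts, which leaves 193 distinct profiles.

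Likeness in pattern was measured as Pearson's r of log2 of TMM-scaled CPM plus 1 over the 18 libraries, which share their ages, so r is given as a description. The 5 names most like novel_miR_101 were novel_miR_63 (r = 0.952), novel_miR_121 (r = 0.945), novel_miR_30 (r = 0.945), cme-miR319c (r = 0.930) and novel_miR_145 (r = 0.925). In the unscaled CPM 4 of these 5 names stayed among the 5 most like it, and r of novel_miR_145 was only 0.632. The likeness of novel_miR_145 thus depends on the scaling. novel_miR_121 and novel_miR_30 have nearly the same counts, and they are the most abundant names of ripe flesh, at 236549 ± 31551 and 236828 ± 31516 CPM at 30 DAP (SD, n = 3). novel_miR_63 had its largest step at 20 against 10 DAP too, 45.5% of its log2 rise, at 1554 ± 227 CPM at 20 DAP and 329 ± 21.03 CPM at 10 DAP (SD, n = 3 each). cme-miR319c, whose family acts on TCP factors of organ growth, was the known name closest to novel_miR_101. The second known name was cme-miR2111a, 20th in order (r = 0.852), and novel_miR_99 itself was only 28th (r = 0.824).

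The 5 names most like novel_miR_99 were novel_miR_67 (r = 0.972), novel_miR_46 (r = 0.966), novel_miR_57 (r = 0.955), cme-miR530b (r = 0.95) and novel_miR_89 (r = 0.95). No name was among the 5 of both. novel_miR_67 stood at 821 ± 150 CPM at 1 DAP, 8777 ± 2842 CPM at 10 DAP and 10404 ± 830 CPM at 30 DAP (SD, n = 3 each), so it too had most of its level by 10 DAP. cme-miR530b stood at 184 ± 41.7 CPM at 1 DAP, 824 ± 301 CPM at 10 DAP and 863 ± 341 CPM at 30 DAP (SD, n = 3 each). Without factors its log2 change at 30 against 10 DAP was -0.85 (SE 0.26, edgeR adjusted p = 0.00396), so its level after 10 DAP depends on the scaling. novel_miR_57 stood at 1125 ± 452 CPM at 10 DAP and 1047 ± 445 CPM at 30 DAP. In contrast, with TMM factors novel_miR_46 and novel_miR_89 had higher means at 30 DAP than at 10 DAP. novel_miR_46 went from 28651 ± 10618 to 58726 ± 10059 CPM, and novel_miR_89 from 8180 ± 3136 to 19249 ± 2177 CPM (SD, n = 3 each). With Spearman's correlation 3 of these 5 names stayed among the 5 most like novel_miR_99.

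**Figure D4:**
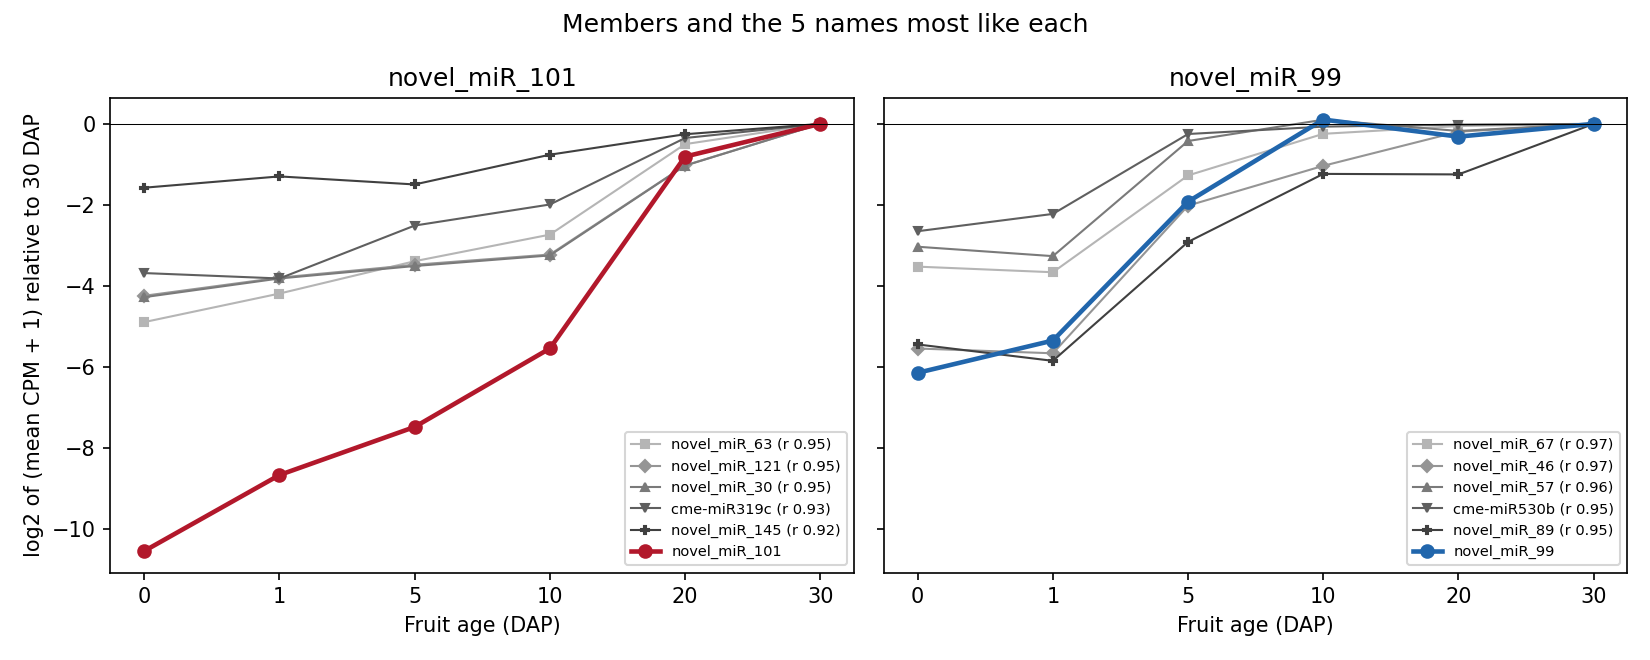
Mean CPM plus 1 at each age relative to that at 30 DAP, on the log2 scale, for novel_miR_101 (red, left) and novel_miR_99 (blue, right) with the 5 names most like each (grey, r in the legend); each point is the mean of 3 libraries, and ages are evenly spaced. On the TMM scale drawn here, novel_miR_101 lies furthest below its level at 30 DAP at all ages up to 10 DAP. On the same scale novel_miR_99 at 10 DAP is already at its level of 30 DAP.

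The known name cme-miR2111a ranked 8th in likeness to novel_miR_99 (r = 0.939). Its family is induced by phosphate starvation and moves in the phloem, and it was the 1 tested name of the list of phloem-mobile families (miR395, miR398, miR399, miR827, miR2111) used here as markers of another tissue. It averaged 84.6 ± 3.96 CPM at 0 DAP, 133 ± 64.4 at 1 DAP, 460 ± 172.4 at 5 DAP, 785 ± 318 at 10 DAP, 669 ± 99.7 at 20 DAP and 1601 ± 527 at 30 DAP (SD, n = 3 each). It rose by 1.76 (SE 0.38, edgeR adjusted p = 0.000955) at 5 against 1 DAP and by 1.26 (SE 0.34, edgeR adjusted p = 0.0116) at 30 against 20 DAP. The part of phloem in the levels of novel_miR_101 and novel_miR_99 was not tested, and in whole flesh a change in the mix of cells cannot be told apart from a change within cells.

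Among the families known to act in ripening (miR156, miR157, miR164, miR172, miR1917), 7 names were tested, and their calls are set here beside the 2 steps that part novel_miR_101 from novel_miR_99. At 20 against 10 DAP, the main step of novel_miR_101, 1 of 7 was higher and 0 lower, beside 8.82% higher and 9.8% lower of all 204 names. That name was cme-miR164c, of a family that acts on NAC factors, at 7996 ± 905 CPM at 20 DAP and 1142 ± 422 CPM at 10 DAP (SD, n = 3 each), with a log2 change of 2.81 (SE 0.31, edgeR adjusted p = 3.39e-06). It was the 2nd highest change of that step after novel_miR_101 with TMM factors. The list median was 0.88 and that of all names -0.08. Most of the 7 names are miR156 names with closely alike counts, and none is of miR157 or miR1917. The list median is thus the value of 1 miR156 name, cme-miR156j, which was not called (edgeR adjusted p = 0.146). Without factors 1 of 7 was higher and 1 lower, cme-miR172b, of the family that targets AP2-like factors, at -0.87 (SE 0.28, edgeR adjusted p = 0.0150).

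At 5 against 1 DAP, the main step of novel_miR_99, 0 of the 7 names were higher and 5 lower, beside 27.5% higher and 25.5% lower of all 204 names, with a list median of -1.62 and a median of all names of -0.01. All 5 were miR156 names, whose family targets SPL transcription factors, and their counts are closely alike, 361 to 430 over the 18 libraries, so they may not be 5 separate results. cme-miR156d fell by 1.72 (SE 0.41, edgeR adjusted p = 0.00232), at 79.4 ± 21.5 CPM at 5 DAP and 266 ± 117 CPM at 1 DAP (SD, n = 3 each). The same 5 of 7 numbers were obtained with RLE factors and without factors. At 30 against 10 DAP, the comparison added after seeing the data, 6 of the 7 names were higher and 0 lower with TMM factors. Of all 204 names, 21.1% were higher and 23% lower. The list median was 1.49 and that of all names -0.06. These 6 were the same 5 miR156 names, closely alike in counts, and cme-miR164c, so they may not be 6 separate results. Without factors 1 of the 7 was higher and 1 lower.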

How the data were processed

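Flesh RNA was taken up in Trizol and its small fraction was excised from a gel for Illumina small RNA libraries, per the labels' protocols. fastp and BWA are named in the submitters' processing notes. For their versions and roles, the genome build, the miRNA prediction and the way reads were counted, the entry is: not given in the sources used here. The deposited tables hold whole-number counts per name with no normalization by the authors.

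Counts of the 18 stage libraries were fitted together with edgeR 4.0.16 in R 4.3.3 (filterByExpr at a minimum count of 10, TMM factors, robust quasi-likelihood fit, prior count 0.125). This kept 204 names, both members included. Benjamini-Hochberg adjusted p-values under 0.05 over all tested names were called. Groups and replicate numbers came from the titles. Intervals and the limit of 3 counts cover counting error only, as no molecular identifiers are mentioned. Replicates had Spearman correlations of 0.948 to 0.995, and none differed by less than sampling noise.

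The members and lists were chosen with earlier results of these data known. Besides these, names were printed by likeness to a member, by rising at all steps, and by rank beside a member at 30 DAP. Same-numbered libraries deviated together in all 3 replicate numbers only at 1 against 0 DAP, with correlations of 0.23, 0.76 and 0.67. At 10 against 5 DAP the third number reached 0.47, and 11 of 21 pairs over all comparisons exceeded 0.1. The main fit used no pairing at any step, so the numbers were taken as pairs only in the alternatives with a replicate block. Alternatives were RLE factors, no factors, other filters, DESeq2 1.42.0, a replicate block, another prior count and leaving out each replicate. A fit without robust estimation, the block within 6 libraries and a scaling to reference names were added after seeing the data. The edgeR steps were run on simulated data with the same dispersion for every name and changes at 30 DAP only. That simulation does not cover the choice of scaling factors.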

Additional observations from a re-analysis of the deposited data

How the results depend on the processing

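Without scaling factors novel_miR_101 changed by 9.49 at 30 against 0 DAP, 0.22 at 30 against 20 DAP and 4.62 at 30 against 10 DAP, and novel_miR_99 by 5.03 at 30 against 0 DAP, -0.76 at 20 against 10 DAP, -0.28 at 30 against 20 DAP and -1.04 at 30 against 10 DAP. Names called without factors numbered 71 at 20 against 10 DAP, with 13 higher and 58 lower, 97 at 30 against 20 DAP, with 14 and 83, and 171 at 30 against 10 DAP, with 20 and 151. At 30 against 0 DAP the split was then 31 higher and 135 lower, at 5 against 1 DAP 39 and 96, and at 10 against 5 DAP 63 and 34. With TMM factors these 6 splits were 18 and 20, 23 and 16, 43 and 47, 58 and 80, 56 and 52, and 24 and 56. Scaled to the summed counts of 7 miR156 and miR159 names, most of them cme-miR159a, an alternative chosen after seeing the data, novel_miR_101 changed by 0.19 at 5 against 1 DAP, 2.63 at 10 against 5 DAP and 5.50 at 20 against 10 DAP. novel_miR_99 then changed by 2.51, 2.77 and 0.31 at these steps, by -0.067 at 30 against 20 DAP and by 0.24 at 30 against 10 DAP. These reference names changed themselves: with TMM factors at 5 against 1 DAP cme-miR159a rose by 0.92 (edgeR adjusted p = 0.0187) and cme-miR159b by 0.82 (edgeR adjusted p = 0.0293), while the 5 miR156 names fell. The direction of novel_miR_99 after 10 DAP therefore has no answer that holds under every scaling. At 1 against 0 DAP DESeq2 called 3 names and the replicate block in the 6 libraries alone, chosen after seeing the data, 34. DESeq2 split its calls at 20 against 10 DAP into 32 higher and 23 lower. Over the 18 libraries the replicate block gave novel_miR_101 4.73 at 20 against 10 DAP and changed no count of calls by over 1.5 times.

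Leaving out 1 library, names called at 10 against 5 DAP ranged from 50 to 78, the lowest without the second library of 5 DAP, with 25 higher and 25 lower, and 51 without the second of 10 DAP. At 20 against 10 DAP they ranged from 22 to 39, with 22 without the third library of 20 DAP and 23 without the second of 10 DAP. The change of novel_miR_99 at 30 against 10 DAP ranged from -0.40 to 0.062, at 0.062 without the first library of 10 DAP and 0.043 without the second of 30 DAP. Without the third library of 0 DAP the mean of novel_miR_99 at 0 DAP was 63.8 CPM, against 102 CPM with it, and its change was 1.44 at 1 against 0 DAP and 6.80 at 30 against 0 DAP. A prior count of 1 gave novel_miR_101 9.78 at 30 against 0 DAP. With RLE factors, other filters and another prior count no direction of either member turned. The cause of these differences was not tested.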

Other observations

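Of the 204 tested names, 12 had means that rose at all 5 steps with TMM factors, while RLE factors gave 14 such names and unscaled CPM 4. novel_miR_101 was among them under each of the 3 scalings and novel_miR_99 under none. This order of means takes no account of the spread, and some of its steps lie within it. With TMM factors novel_miR_18 averaged 27.1 ± 12.8 CPM at 0 DAP and 27.3 ± 13.7 CPM at 1 DAP (SD, n = 3 each). hbr-miR6485 had 2 counts in all at 0 DAP. The other 3 without factors were hbr-miR6485, novel_miR_146 and novel_miR_175, of which novel_miR_146 and novel_miR_175 have the same counts. With TMM factors the largest step of hbr-miR6485 was 30 against 20 DAP, at 2928 ± 582 CPM at 30 DAP and 74.6 ± 5.66 CPM at 20 DAP, and that of novel_miR_146 was 5 against 1 DAP, at 603 ± 105 CPM at 5 DAP and 42.3 ± 18.8 CPM at 1 DAP (SD, n = 3 each). The main step of novel_miR_101, hbr-miR6485 and novel_miR_146 thus lay at a different age for each. novel_miR_18, novel_miR_74, novel_miR_106 and cme-miR530b also had their largest step at 5 against 1 DAP, that of novel_miR_154 was 10 against 5 DAP, and novel_miR_30, novel_miR_63 and novel_miR_121 shared the step of novel_miR_101.

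The names least like novel_miR_101 were novel_miR_131 (r = -0.952) and novel_miR_71 (r = -0.951). novel_miR_131 stood at 415 ± 6.92 CPM at 30 DAP and 1776 ± 210 CPM at 0 DAP, and novel_miR_71 at 1632 ± 102 CPM at 30 DAP and 5029 ± 524 CPM at 0 DAP (SD, n = 3 each). Those least like novel_miR_99 were novel_miR_152 (r = -0.962) and novel_miR_171 (r = -0.961). novel_miR_152 stood at 6578 ± 1174 CPM at 0 DAP, 3003 ± 291 CPM at 10 DAP and 2716 ± 254 CPM at 30 DAP (SD, n = 3 each).

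At 30 DAP novel_miR_101 was the 19th name by mean CPM, between novel_miR_53 at 15867 ± 1971 CPM and novel_miR_12 at 14530 ± 2494 CPM (SD, n = 3 each). Both of these neighbours were already abundant at 0 DAP, at 14324 and 17699 CPM, where novel_miR_101 had 9.29 CPM. novel_miR_99 was the 30th, between novel_miR_40 at 7592 ± 491 CPM and novel_miR_141 at 7179 ± 1854 CPM (SD, n = 3 each). novel_miR_40 had 993 CPM at 10 DAP, where novel_miR_99 had 7838 CPM.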
